A study of Homo sapiens with 4 samples.

Results

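The peaks described here are the 339 sites of histone H4 lysine 5 lactylation (H4K5la) that lie at the far end of the long arm of chromosome 17, in band 17q25. They were taken from 2 peak lists by position alone: every peak on chromosome 17 (build hg38) whose centre is at 78 Mb or higher. That gave 147 of the 1943 peaks of wild-type (WT) SH-SY5Y cells and 192 of the 2755 peaks of DNAJC12 knockout (DNAJC12KO) SH-SY5Y cells. The stretch was chosen because it was known to be rich in peaks, so its number of peaks is a description and was not tested. SH-SY5Y is a human neuroblastoma line, derived from SK-N-SH and known to carry extra copies of distal 17q; copy number was not measured here. The WT group was unmodified SH-SY5Y, and the DNAJC12KO group was the same line with DNAJC12, whose product is a chaperone partner of the hydroxylases that make tyrosine, dopamine and serotonin precursors, knocked out; no treatment is named for either, and whether the knockout is 1 clone is not given in the sources used here. Each genotype had 1 immunoprecipitated library with an antibody to H4K5la and 1 input library, and 1 peak list, so no difference between the genotypes has a replicate check and no test between them was made. The lists hold no read counts, so depth is unknown.

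Lactylation is a modification of histone lysines whose lactyl group derives from lactate, the end product of glycolysis. On histones it has been linked to active genes. Chromatin immunoprecipitation sequencing finds it as stretches in which immunoprecipitated fragments exceed the background, and each such stretch is a peak. The authors' peak caller gives each peak a fold enrichment over the local background and a q-value, the false discovery rate, printed here as -log10 q. Distal 17q25 is a gene-dense, GC-rich stretch next to the telomere. It holds genes of lipid synthesis, growth signalling, cilia and the cytoskeleton as well as Polycomb genes such as CBX2 and CBX8.

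Few of the peaks lay on a listed promoter, and those that did are shown first, because they are the exception. The RefSeq (GRCh38.p14) promoter table used here gives 172 windows for 118 genes of the stretch. Each window runs from 250 bases before a transcription start to 50 bases after it. Only 71 of the 104 protein-coding genes have a window there. FASN, DNAH17, CBX2, TIMP2, CHMP6 and UTS2R are among those without, so a peak at their starts is not counted. A WT peak overlapped 1 of them (0.581%) and a DNAJC12KO peak 3 (1.74%), where over all 35116 windows of the table the shares were 0.094% (WT) and 0.188% (DNAJC12KO). The DNAJC12KO peak chr17:78230853-78231482 (fold 3.96, -log10 q 1.92) covered all of the window at the first start of TMEM235 and 102 bases of the window at its other start. The DNAJC12KO peak chr17:81642117-81642740 (fold 3.62, -log10 q 1.63) covered 238 bases of a window at a start inside the record of TSPAN10, a tetraspanin gene. The WT peak chr17:81232861-81234552 (fold 4.14, -log10 q 1.99) covered all of the window of LOC124904081, a long non-coding RNA inside TEPSIN. The windows are given 5′ to 3′ on the strand of the gene, which is the plus strand for each, with CpG dinucleotides in capitals. TMEM235 lies at chr17:78231043-78231342, LOC124904081 at chr17:81233208-81233507 and TSPAN10 at chr17:81642055-81642354.
TMEM235: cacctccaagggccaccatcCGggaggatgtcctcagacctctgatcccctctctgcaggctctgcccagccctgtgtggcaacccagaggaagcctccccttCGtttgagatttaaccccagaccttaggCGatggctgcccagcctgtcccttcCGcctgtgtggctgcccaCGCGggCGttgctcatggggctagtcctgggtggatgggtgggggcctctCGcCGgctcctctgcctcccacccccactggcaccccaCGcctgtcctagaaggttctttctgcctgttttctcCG
LOC124904081: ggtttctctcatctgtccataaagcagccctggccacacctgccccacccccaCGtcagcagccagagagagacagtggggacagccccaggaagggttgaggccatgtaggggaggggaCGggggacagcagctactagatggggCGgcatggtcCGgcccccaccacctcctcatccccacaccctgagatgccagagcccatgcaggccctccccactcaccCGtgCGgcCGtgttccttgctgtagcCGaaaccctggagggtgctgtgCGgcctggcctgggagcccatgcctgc
TSPAN10: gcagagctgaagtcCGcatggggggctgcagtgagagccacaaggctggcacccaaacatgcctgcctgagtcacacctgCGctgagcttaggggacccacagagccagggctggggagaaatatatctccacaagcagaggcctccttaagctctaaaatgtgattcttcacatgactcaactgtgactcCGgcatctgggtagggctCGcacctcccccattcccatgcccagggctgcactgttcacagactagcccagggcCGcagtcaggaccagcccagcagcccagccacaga
The 4 windows that met a peak had few CpGs for this stretch: 11 and 11 at TMEM235, 9 at LOC124904081 and 5 at TSPAN10, against a median of 24 over the 172 windows of the stretch and 14 over all windows. Their G+C content was 64.3% and 63.3% (TMEM235), 66.3% (LOC124904081) and 59.7% (TSPAN10), against medians of 67.0% in the stretch and 58.7% over the table. The motif GGGCGG, searched on both strands, was in 62.8% of the windows of the stretch and 45.0% of all windows; of the 4 windows with a peak, the LOC124904081 window and the second TMEM235 window held it. The motif TATAAA, also searched on both strands, was in 8.14% of the windows of the stretch and 11.5% of all windows, and in none of these 4.

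A single microRNA gene of the stretch lay inside a peak. MIR6786, on the plus strand within HGS, was enclosed by the WT peak chr17:81693275-81694575 (fold 3.44, -log10 q 1.25), while the nearest DNAJC12KO peak was 2.18 kb away. Of the 11 microRNA hairpins examined here, 1 was overlapped by a WT peak and 0 by a DNAJC12KO peak. Within 1 kb of a WT peak lay 2 of them, and within 1 kb of a DNAJC12KO peak 3. RefSeq has 12 microRNA records in the stretch, also with 1 (8.33%) overlapped in WT and 0 in DNAJC12KO. No share over all microRNA genes was computed, so these counts stand without a background. The mature products are given with the seed, bases 2 to 8, in capitals, and their seeds differ.
hsa-miR-6786-5p: gCGGUGGGgccggaggggcgu
hsa-miR-6786-3p: uGACGCCCcuucugauucugccu

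The stretch of 5.24 Mb carried 28.0 WT peaks and 36.6 DNAJC12KO peaks per Mb, beside 1.81 and 2.60 on the rest of chromosome 17. It held 7.57% of the WT list (exact binomial 95% interval 6.43 to 8.83%) and 6.97% of the DNAJC12KO list (6.05 to 7.98%); these intervals cover counting error only. The first 3 Mb of chromosome 7, the other crowded chromosome end, carried 39.7 WT and 40.7 DNAJC12KO peaks per Mb. The number of DNAJC12KO peaks over that of WT peaks was 1.31 in the stretch and 1.42 over the whole lists. That order turned with a fold of at least 4, which left 27 WT and 24 DNAJC12KO peaks (a ratio of 0.889, and 0.865 over the whole lists), and with the DNAJC12KO list shortened to the length of the WT list, which left 147 and 143. With -log10 q of at least 2 the ratio was 2.2 (10 WT and 22 DNAJC12KO peaks), and 1.37 over the whole lists. At the boundary, the last WT peak outside lay at chr17:77852933-77853568 (fold 3.31) and the first inside at chr17:78121793-78122434 (fold 3.85); for DNAJC12KO they were chr17:77862017-77862403 (fold 3.21) and chr17:78172976-78173621 (fold 3.23).

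Peaks were not spread evenly within the stretch. From 78 to 79 Mb there were 10 WT and 21 DNAJC12KO peaks, and from 79 to 80 Mb, most of which is the gene RBFOX3, 16 and 37. WT had more peaks from 80 to 81 Mb (23 WT and 16 DNAJC12KO) and from 81 to 82 Mb (64 and 59), the densest Mb, which touches 37 protein-coding genes. From 82 to 83 Mb there were 28 WT and 43 DNAJC12KO peaks, and from 83 Mb to the end 6 and 16. In steps of 100 kb, the highest DNAJC12KO count was 20, at chr17:81100001-81200000, which holds AATK, PVALEF and part of CEP131, and WT had 12 there. The highest WT count was 13, at chr17:82000001-82100000, which holds LRRC45 and FASN, and DNAJC12KO had 15 there. Of the 53 steps, 39 held a peak of each list and 4 held none of either.

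**Figure D1:**
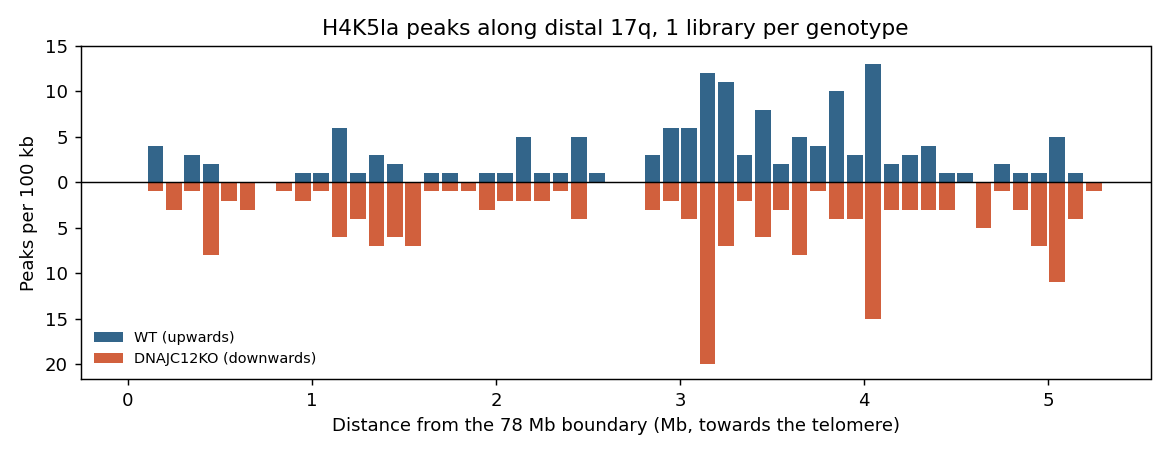
Number of H4K5la peaks in each 100 kb step (y axis) against the distance from the 78 Mb boundary in Mb (x axis), with WT bars upwards and DNAJC12KO bars downwards, 1 library each. The tallest DNAJC12KO bar (20 peaks) and the tallest WT bar (13 peaks) stand in the part beyond 81 Mb, where both lists are crowded.

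Neighbouring peaks were close together. The median distance between the centres of neighbouring peaks of the same list was 17.3 kb for WT and 12.2 kb for DNAJC12KO, against 88.0 and 81.9 kb on the rest of chromosome 17 and 11.6 and 12.1 kb in the first 3 Mb of chromosome 7. The order of the genotypes turned with lists of equal length (17.3 kb WT and 19.0 kb DNAJC12KO) and at folds of 4 or more (73.4 and 136 kb). Of the 146 WT spacings, 40 (27.4%) were under 5 kb, and of the 191 DNAJC12KO spacings, 56 (29.3%). Over the whole lists these shares were 13.0% and 12.5%, and in the first 3 Mb of chromosome 7 they were 28.0% and 31.4%. The closest WT centres were 0.769 kb apart and the closest DNAJC12KO centres 0.993 kb.

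**Figure D2:**
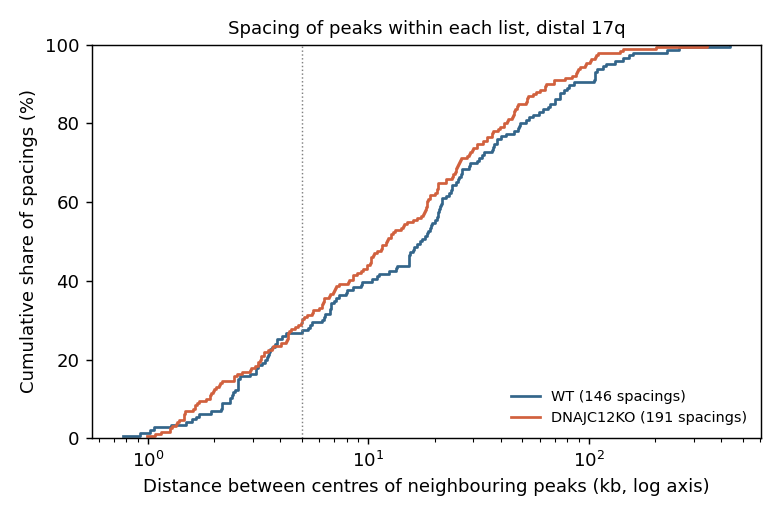
Cumulative share of spacings in percent (y axis) against the distance between the centres of neighbouring peaks of one list in kb on a log axis (x axis), for 146 WT and 191 DNAJC12KO spacings. The dotted line marks 5 kb, below which lie 27.4% of the WT and 29.3% of the DNAJC12KO spacings, and the WT median (17.3 kb) lies to the right of the DNAJC12KO median (12.2 kb), an order that turns with lists of equal length (17.3 and 19.0 kb) and at folds of 4 or more (73.4 and 136 kb).

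The peaks were low in fold and somewhat wider than elsewhere. Their median width was 514 bp in WT and 528 bp in DNAJC12KO, against 448 and 456 bp outside the stretch. In the first 3 Mb of chromosome 7 it was 497 and 538 bp. The widest peak of each whole list (2666 bp in WT and 2176 bp in DNAJC12KO) lay in the stretch. WT folds ran from 3.08 over a median of 3.65 to 4.76, and DNAJC12KO folds from 2.95 over 3.56 to 4.93, where the medians outside the stretch were 3.82 and 3.69. A fold of at least 4 was reached by 18.4% of the WT and 12.5% of the DNAJC12KO peaks of the stretch (28.3% and 17.2% of the whole lists). For -log10 q of at least 2 the shares were 6.80% and 11.5% (10.6% and 10.2% of the lists). Low folds were not particular to the stretch. On the rest of chromosome 17 the median folds were 3.68 (WT) and 3.61 (DNAJC12KO), and 15.6% and 14.3% of peaks reached a fold of 4. In the first 3 Mb of chromosome 7 the medians were 3.71 and 3.57, and the shares 22.7% and 12.3%. Among peaks with a fold from 3.5 to under 4, the median -log10 p was 5.17 for WT and 5.33 for DNAJC12KO in the stretch, and 5.02 and 4.97 outside it. In the first 3 Mb of chromosome 7, where peaks per Mb were more numerous, it was 5.07 and 5.20. The part of these values and of copy number in the number of peaks was not tested.

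Ranked by -log10 q, the first WT peak, chr17:81458664-81459391 (fold 4.50, -log10 q 2.87), lay in BAHCC1, a gene for a chromatin protein with a BAH domain. The next WT peaks were in AATK, a kinase gene of neurons (fold 4.32), in SLC25A10, the mitochondrial dicarboxylate carrier gene (4.76), and in ASPSCR1 (4.16). They were followed by peaks in UTS2R, the urotensin receptor gene (4.12), and CHMP6, an ESCRT-III subunit gene (4.04). The first DNAJC12KO peak by -log10 q, chr17:82692346-82692653 (fold 4.93, -log10 q 3.31), lay in RAB40B, a small GTPase gene without a WT peak. The next were in RBFOX3 (fold 4.55), in the long non-coding RNA LOC124904078 (4.83), 5.27 kb from its nearest protein-coding gene, and in SLC38A10, an amino acid transporter gene (3.95). Those in TEPSIN (4.16) and AATK (4.35) completed the DNAJC12KO set. Among these 12 leading peaks only the TEPSIN peak overlapped a peak of the other list.

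Most peaks lay inside genes and away from the starts in the promoter table. Protein-coding gene records cover 71.2% of the bases of the stretch and held the centres of 124 WT peaks (84.4%, interval 77.5 to 89.8%) and 163 DNAJC12KO peaks (84.9%, 79.03 to 89.6%), where over the whole lists the shares were 82.1% and 76.2%. Exons were not used here, so exon and intron are not told apart. Bases within 1 kb of a RefSeq start make up 4.76% of the stretch, and 9 WT (6.12%) and 7 DNAJC12KO centres (3.65%) lay there, beside 4.99% and 4.94% of the whole lists. The median centre was 10.6 kb (WT) and 12.1 kb (DNAJC12KO) from the nearest listed start. Only 71 of the 104 protein-coding genes have a listed start, so peaks of the others were measured to the start of another gene. The WT peak in TIMP2, which has no listed start, was given 56.0 kb in this way. Both the 1 kb shares and the distances carry this limit. For the 71 protein-coding genes with a strand in the promoter table, each record was divided into 3 equal parts. The part at the 3′ end held the centres of 45 of 101 WT peaks (44.6%, interval 34.7 to 54.8%) and 65 of 133 DNAJC12KO peaks (48.9%, 40.1 to 57.7%), and the part at the 5′ end 27.7% and 24.1%. Outside the stretch, the part at the 3′ end held 47.1% and 50.8%.

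Of the 104 protein-coding genes that reach beyond 78 Mb, 53 carried a WT peak in their record (51.0%) and 57 a DNAJC12KO peak (54.8%), where over all 20033 protein-coding genes the shares were 5.54% and 7.12%. Both lists marked 39 genes (37.5%, over all genes 2.53%). WT alone marked 14 (13.5%, over all genes 3.01%) and DNAJC12KO alone 18 (17.3%, over all genes 4.597%). The other 33 genes carried no peak (31.7%, over all genes 89.9%). Genes with a peak of each list were longer, with a median record of 22.9 kb, than genes without a peak, with 6.29 kb. The 40 protein-coding genes of the first 3 Mb of chromosome 7 carried a WT peak in 60.0% and a DNAJC12KO peak in 57.5%. Of the 66 long non-coding RNA records of the stretch, 13 (19.7%) overlapped a WT peak and 12 (18.2%) a DNAJC12KO peak, 5 of them both. Over all 18303 such records the shares were 0.803% and 1.34%, and 0.175% for both.

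Several genes carried many peaks. At least 3 WT peaks were found in 15 genes (14.4%) and at least 3 DNAJC12KO peaks in 17 (16.3%), where over all genes the shares were 0.509% and 0.764%. At least 3 in each list were found in 10 genes (9.62%, over all genes 0.270%). The 12 genes with most peaks took 65 of the WT peaks (44.2%) and 101 of the DNAJC12KO peaks (52.6%). More DNAJC12KO than WT peaks were found in RBFOX3 (13 WT and 31 DNAJC12KO), in AATK (6 and 10), in CEP131, a gene of centriolar satellites and cilia (3 and 9), in TBCD, a tubulin folding cofactor gene (3 and 9), and in DNAH17, an axonemal dynein gene (2 and 9). The same order held for QTGAL, which encodes a glycosyltransferase that acts on tRNA (1 and 6), and for HGS, an ESCRT-0 gene (3 and 4). The opposite order was found in BAHCC1 (8 and 5), in BAIAP2, a gene of actin-rich dendritic spines (8 and 5), in RPTOR, the mTORC1 scaffold gene (7 and 5), and in SLC38A10 (5 and 3). FASN, the fatty acid synthase gene, had 6 in each. The records of BAIAP2 and AATK overlap at their ends, and the DNAJC12KO peak chr17:81117015-81117606 counts for both. Other DNAJC12KO peaks also count for more than 1 gene. These include chr17:78424087-78424724 for DNAH17 and PGS1, chr17:82831507-82832471 for TBCD and ZNF750, and a peak of fold 3.85 for CARD14 and SGSH. Counts of the role groups below therefore share peaks.

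**Figure D3:**
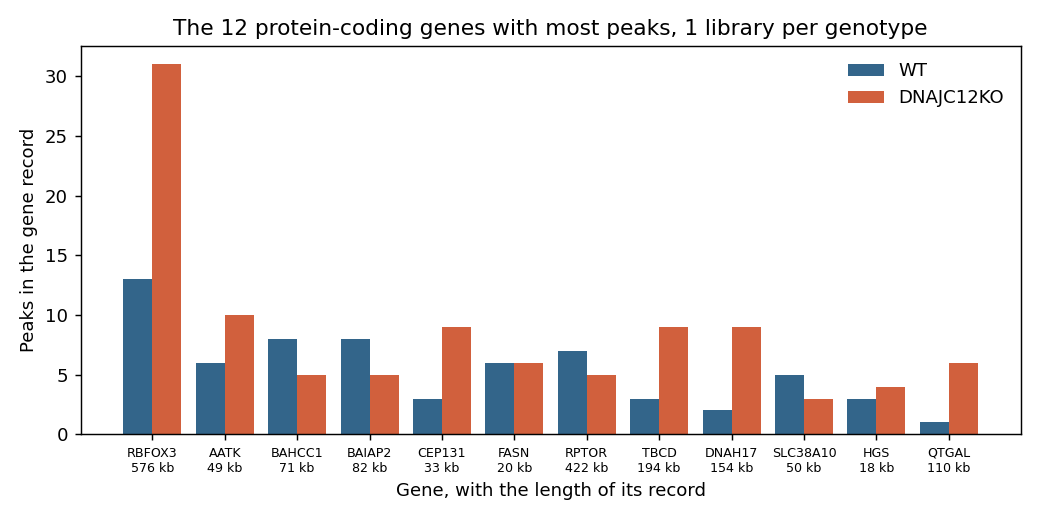
Number of peaks in the gene record (y axis) for the 12 protein-coding genes with most peaks over both lists (x axis, with record length in kb), 1 WT and 1 DNAJC12KO library. RBFOX3 has 13 WT and 31 DNAJC12KO peaks; BAHCC1, BAIAP2, RPTOR and SLC38A10 have more WT peaks, and FASN has 6 of each.

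RBFOX3 encodes NeuN, the splicing regulator used to mark mature neurons, and is the longest protein-coding gene of the stretch (576 kb, chr17:79089345-79665571, minus strand). Its 13 WT peaks had folds of 3.30 to 3.91 and its 31 DNAJC12KO peaks 3.08 to 4.55. It took 8.84% of the WT peaks of the stretch (interval 4.79 to 14.6%) and 16.1% of the DNAJC12KO peaks (11.2 to 22.1%). These intervals cover counting error within 1 library and cannot compare the genotypes. Counted from the 5′ end of the record, the first 200 kb held 1 WT peak, chr17:79654339-79654617 (fold 3.71), and 11 DNAJC12KO peaks (folds 3.08 to 3.73). The rest of the gene held 12 and 20. The 200 kb cut was not a planned setting and falls in a WT gap of 226 kb (chr17:79427906-79654338). These counts were not repeated with lists of equal length. The DNAJC12KO peak with the highest fold, chr17:79441681-79442031, lay 224 kb from that end, and the nearest WT peak, chr17:79427627-79427905 (fold 3.82), 238 kb from it. Without RBFOX3 the stretch held 134 WT and 161 DNAJC12KO peaks, a ratio of 1.20, where within RBFOX3 it was 2.38. With lists of equal length RBFOX3 had 13 WT and 20 DNAJC12KO peaks, and with a fold of at least 4 it had 0 and 3.

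**Figure D4:**
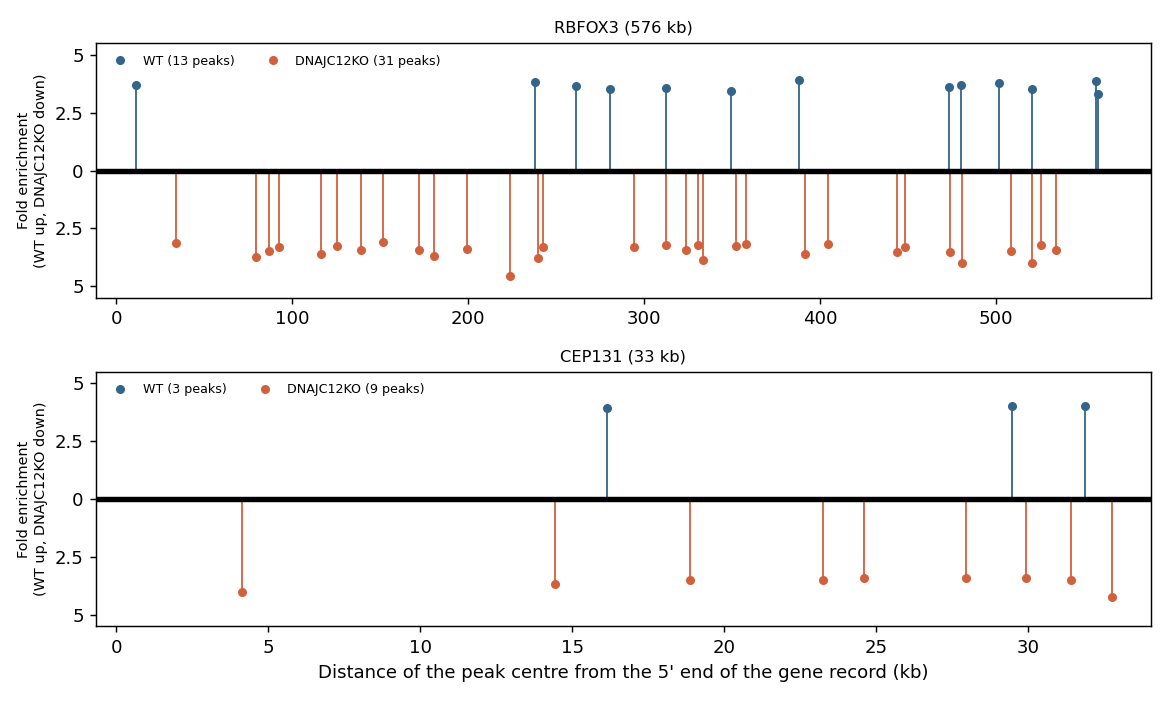
Peaks along RBFOX3 (576 kb) and CEP131 (33.4 kb), each drawn at the distance of its centre from the 5′ end of the gene record in kb (x axis) with its fold enrichment (y axis), WT upwards and DNAJC12KO downwards. The first 200 kb of RBFOX3, a cut that was not planned, hold 1 WT and 11 DNAJC12KO peaks. At CEP131 the 2 WT peaks near the 3′ end meet DNAJC12KO peaks.

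Relative to length, the order of the genes differed between the lists. In WT, TEPSIN, an adaptor gene of vesicle traffic, came first with 4.64 peaks per 10 kb (5 peaks in 10.8 kb), followed by CHMP6 with 3.62, SLC25A10 with 3.44 and FASN with 3.02. In DNAJC12KO, RFNG came first with 5.12 (2 peaks in 3.91 kb), followed by RAC3 with 3.96 (a single peak) and LRRC45, a centrosome gene, with 3.82. With the lists added together, LRRC45 had 6.37 per 10 kb, FASN 6.03 and TEPSIN 5.57, while RBFOX3 had 0.764 and RPTOR 0.285. The 6 WT peaks of FASN (chr17:82078338-82098236) had folds of 3.37 to 4.07 and its 6 DNAJC12KO peaks 3.37 to 3.52. Counted from the lower coordinate, they lay from 2.42 to 17.5 kb into the 19.9 kb record, in 4 overlapping pairs and 5 peaks without a partner. At TEPSIN the 5 WT peaks, with folds of 3.45 to 4.25, lay within chr17:81230229-81237519, and the DNAJC12KO peak chr17:81233668-81234034 (fold 4.16) lay inside the widest of them. At CEP131 the 3 WT peaks had folds of 3.95 to 4.02 and the 9 DNAJC12KO peaks 3.40 to 4.23. RPTOR was marked almost only in its 3′ part: its first WT peak lay 15.7 kb from the 5′ end, and its other 6 WT and all 5 DNAJC12KO peaks lay from 273 kb onwards.

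Grouped by role, the genes of small GTPases, actin, cilia and microtubules had a WT peak in 8 of 14 and a DNAJC12KO peak in 11 of 14. The groups were drawn up from the genes of the stretch with earlier results known, and their counts are to be read against the 51.0% and 54.8% of all its protein-coding genes. All 8 WT-marked members had a DNAJC12KO peak too. The 3 others with a DNAJC12KO peak were RAB40B (2 peaks), RAC3, a small GTPase gene (1 peak, fold 3.51, with a WT peak 4.22 kb away), and CYTH1, an ARF exchange factor gene (1 peak, fold 3.57). ACTG1, cytoplasmic actin, ARHGDIA, a GDP dissociation inhibitor gene, and ARL16 had none. The members together held 22 WT and 45 DNAJC12KO peaks, beside 147 and 192 in the whole stretch. DNAJC12KO totals were also higher in the neuronal and neuropeptide group (21 and 45) and the matrix and immune surface group (4 and 8). WT totals were higher in the metabolic (16 and 14), signalling (17 and 14), protein turnover (11 and 10) and Polycomb and chromatin (2 and 1) groups.

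Of 7 neuronal and neuropeptide genes, 4 had a WT and 4 a DNAJC12KO peak, 3 of them both: RBFOX3, AATK and METRNL, a secreted factor gene (1 WT and 3 DNAJC12KO peaks). UTS2R had a WT peak, and NPTX1, a neuronal pentraxin gene, a DNAJC12KO peak (fold 3.70) with a WT peak 4.53 kb away. NPB, neuropeptide B, and PDE6G, a rod phosphodiesterase subunit gene, had none.

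Metabolic enzymes and transporters had 7 of 15 members marked in each list, 5 in both. FASN led, followed by SLC25A10 (3 WT and 1 DNAJC12KO), GAA, lysosomal acid glucosidase (3 and 1), PGS1 of cardiolipin synthesis (1 and 2), SGSH, a lysosomal enzyme gene of heparan sulfate breakdown (0 and 2), and SLC16A3. SLC26A11 had a WT peak only (fold 4.03) and HEXD, a hexosaminidase gene, a DNAJC12KO peak only (3.69). SLC16A3 encodes the lactate exporter MCT4 and carried 1 peak in each list at opposite ends of its record. The WT peak chr17:82238620-82239470 (fold 3.67) also touched the neighbouring gene CSNK1D, and the DNAJC12KO peak chr17:82219404-82220124 had a fold of 3.96. TK1, thymidine kinase, had a WT peak only (fold 4.11), with a DNAJC12KO peak 0.458 kb from its record. PYCR1 of proline synthesis, PCYT2 of phospholipid synthesis, DCXR, FN3K, FN3KRP and MRPL12 had none.

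Of 7 genes listed as Polycomb and chromatin genes, 2 were marked in WT and 1 in DNAJC12KO, and none in both. The list takes in RNA genes such as ALYREF and EIF4A3. It leaves out the chromatin gene BAHCC1, which had 8 WT and 5 DNAJC12KO peaks, so it does not stand for all chromatin genes of the stretch. CBX2, a reader subunit of Polycomb complexes, held the WT peak chr17:79785770-79786179 (fold 3.47). The nearest DNAJC12KO peak to CBX2 was 33.7 kb away. Its relative CBX8 had no peak. SIRT7, a nuclear deacylase gene, had none either, its nearest WT peak being 1.21 kb away. ALYREF, an mRNA export factor gene, had a WT peak (3.31) and CENPX, a kinetochore and DNA repair gene, a DNAJC12KO peak (3.38), while the exon junction gene EIF4A3 had none.

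Signalling and transcription genes had 7 of 11 members marked in each list and 5 in both. These 5 were RPTOR; CSNK1D, a casein kinase gene (3 WT and 2 DNAJC12KO); CARD14 (2 and 2); MAFG, a small MAF factor gene (2 and 1); and GCGR, the glucagon receptor gene (1 and 1). At GCGR the WT peak chr17:81812907-81813380 (fold 3.62) lay near the 3′ end and the DNAJC12KO peak chr17:81805776-81806068 (fold 3.69) in the 5′ part. SOCS3, a feedback inhibitor gene of cytokine signalling, and FOXK2 had a WT peak (3.49 and 4.11). RFNG, a Notch glycosyltransferase gene, had 2 DNAJC12KO peaks with a WT peak 0.083 kb from its record. The transcription factor gene ZNF750 had 1 DNAJC12KO peak, which is also a peak of TBCD. GPS1 and NOTUM, which encodes an inhibitor of WNT, had none.

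Protein turnover and folding genes had 6 (WT) and 5 (DNAJC12KO) of 10 members marked, and 3 in both: HGS, ASPSCR1 (2 WT and 3 DNAJC12KO) and RNF213, a large ubiquitin ligase gene (1 and 1). CHMP6 was the only protein-coding gene of the stretch with at least 3 peaks in one list and 0 in the other. Its 3 WT peaks had folds of 3.49 to 4.15, and the nearest DNAJC12KO peak was 19.2 kb away. P4HB, the gene of protein disulfide isomerase, and ANAPC11 had 1 WT peak each (3.18 and 4.06), and BIRC5, survivin, and ENGASE 1 DNAJC12KO peak each (3.81 and 3.39). USP36 and NPLOC4 had none. Of 6 matrix and immune surface genes, 4 had a WT and 3 a DNAJC12KO peak. TIMP2, a metalloproteinase inhibitor gene, held a WT peak at chr17:78923478-78924391 (fold 3.60) and a DNAJC12KO peak at chr17:78880844-78881228 (fold 3.39). QTGAL, counted in this group although its product acts on tRNA, also had both. It held 1 of the 4 WT and 6 of the 8 DNAJC12KO peaks of the group. CYBC1 and SECTM1 had a WT peak only (3.83 and 3.17), the T cell surface gene CD7 had a DNAJC12KO peak only (3.56), and LGALS3BP had none.

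Sharing of exact places was low. An overlap of 1 bp or more joined 27 WT peaks (18.4%, interval 12.5 to 25.6%) to 27 DNAJC12KO peaks (14.1%, 9.48 to 19.8%). Over the whole lists the shares were 9.06% and 6.39%, on the rest of chromosome 17 they were 8.51% and 5.91%, and in the first 3 Mb of chromosome 7 they were 23.5% and 23.0%. Peaks covered 1.75% (WT) and 2.17% (DNAJC12KO) of the bases of the stretch, and crowding moves with sharing in these numbers; its part was not tested. A peak of the other list lay within 10 kb of 66.7% of WT and 58.9% of DNAJC12KO peaks (whole lists 40.3% and 29.8%). With an overlap of at least 50% of each peak, 6.12% of WT and 4.69% of DNAJC12KO peaks were shared.

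The 27 and 27 peaks formed 28 overlapping pairs, 26 of them inside one of 16 protein-coding genes. RBFOX3 and FASN had 4 pairs each, CEP131 3, and LRRC45 and CSNK1D 2 each. The best matched in position were the pair at PVALEF, chr17:81180552-81181093 (WT, fold 3.42) and chr17:81180554-81181088 (DNAJC12KO, fold 3.56), and the pair at HGS, which shared 902 bases of chr17:81696045-81696951 (WT, fold 3.61) and chr17:81696050-81697023 (DNAJC12KO, fold 3.71). At MYADML2 the WT peak chr17:81939988-81940767 lay wholly inside its DNAJC12KO partner, with folds of 3.40 and 4.35. The widest WT peak of the stretch, chr17:81189739-81192404 at the 3′ end of CEP131, enclosed 2 DNAJC12KO peaks (folds 4.23 and 3.49). The fold was higher in WT in 18 pairs and higher in DNAJC12KO in 10, and it differed by over 0.5 in 7. The median fold of the overlapping peaks was 3.61 (WT) and 3.52 (DNAJC12KO), against 3.66 and 3.57 for the peaks without a partner. They were wider in WT (median 589 against 498 bp) and near equal in DNAJC12KO (535 against 525 bp).

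**Figure D5:**
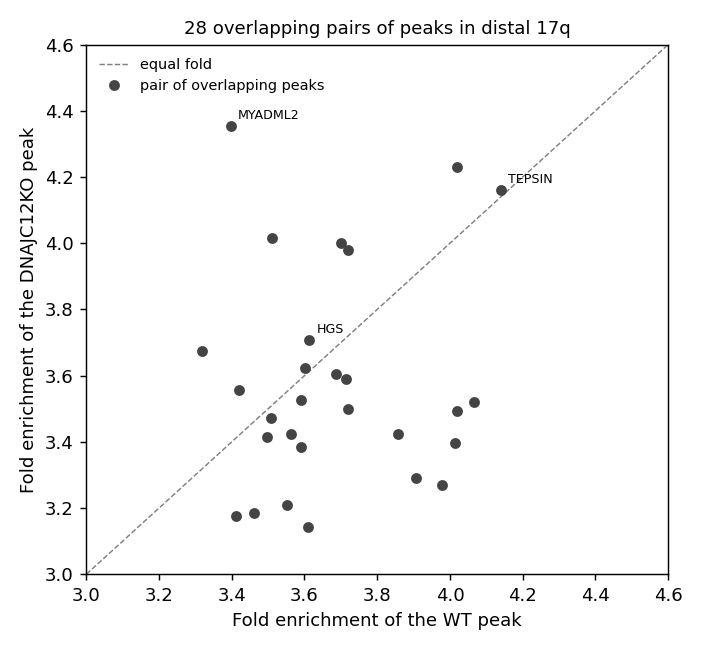
Fold enrichment of the DNAJC12KO peak (y axis) against that of the WT peak (x axis) for the 28 overlapping pairs, with a dashed line of equal fold. Points lie on both sides of the line, 18 with the higher fold in WT and 10 with the higher fold in DNAJC12KO, and the pair at MYADML2 (3.40 and 4.35) lies farthest above it.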

How the data were processed

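H4K5la chromatin immunoprecipitation was measured in SH-SY5Y cells, with 1 immunoprecipitated and 1 input library per genotype. The submitters' processing notes name MACS2 2.2.6 and hg38. Not given in the sources used here: aligner, filters on reads, calling options, any spike-in scaling, and whether the input was the control. The deposited broad peak lists, 1 per genotype and not pooled, were each taken as that of the immunoprecipitated library, since input and immunoprecipitated samples carry the same list name. The fold (a linear ratio over background), -log10 p and -log10 q of each peak are the authors' values. The lists hold called peaks only, depth is unknown, and the input gave no values of its own here. Columns of other samples numbered 0.

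Coordinates are 1-based. Genes and promoter windows came from RefSeq tables of GRCh38.p14, the same assembly as hg38. Of 70 listed genes, 70 matched by symbol or synonym; 1 of them is counted but not reported by name here. A gene carried a peak when its record overlapped it by at least 1 bp. Overlaps were computed in Python 3.11.15 (numpy 2.4.6, pandas 2.3.3, scipy 1.17.1), checked with bedtools 2.31.1 and on simulated lists, and plotted with matplotlib 3.10.9. Intervals are exact binomial (Clopper-Pearson) 95%. No test was made. Genes named are the 12 with most peaks, those of the 6 peaks with the highest -log10 q per list, those of overlapping pairs and members of the role lists; members beyond the 6 with most peaks in a role list were named after their values were seen, as were LRRC45, TEPSIN, TMEM235, LOC124904081 and MIR6786, for their peak density or a peak at a promoter or hairpin. The members and the lists were chosen with earlier results of these data known.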

Additional observations from a re-analysis of the deposited data

How the results depend on the processing

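No paired analysis was possible because each genotype had 1 immunoprecipitated library, so no replicate could be left out either. With peaks of -log10 q of at least 2 only, the stretch held 10 WT and 22 DNAJC12KO peaks, 4.88% of the WT list, 0% overlapping in each list, 10 and 16 genes with a peak (3 in both), 0 and 1 genes with at least 3, and a median spacing of 261 and 104 kb. With a fold of at least 4 it held 27 and 24 peaks, 4.92% and 5.05% of the lists, 7.41% and 8.33% overlapping, 22 and 15 genes (7 in both), 0 and 1 with at least 3, and a spacing of 73.4 and 136 kb. These cuts leave fewer peaks by construction. With lists of equal length the DNAJC12KO spacing was 19.0 kb, above the 17.3 kb of WT. The overlapping share was 6.12% (WT) and 4.69% (DNAJC12KO) with a reciprocal overlap of 50%, 26.5% and 20.3% with the other list's peak within 1 kb, and 66.7% and 58.9% within 10 kb. The other 62 values under the alternatives (boundary at 77 or 79 Mb, peaks under 1 kb apart merged, peak centres or records extended by 3 kb in place of records, lists of equal length, and the DNAJC12KO share of the list with the q-value cut) stayed within 1.5 times a count or spacing, or within the 95% interval of a share. Among the 12 genes with most peaks, 51 of the peak counts under the alternatives left that range, each of them lower than at the authors' threshold. The order of the genotypes turned at HGS with close peaks merged (3 WT and 2 DNAJC12KO), at TBCD with a fold of at least 4 (1 and 0), and with -log10 q of at least 2 at RPTOR (1 and 2) and SLC38A10 (0 and 1). Counts were equal at CEP131 (2 each) and at HGS and RPTOR (1 each) with a fold of at least 4. They were equal too at HGS with lists of equal length (3 each) and at AATK with -log10 q of at least 2 (1 each). Neither list kept a peak at BAIAP2, TBCD, DNAH17 or FASN with that q-value cut, or at SLC38A10 with the fold cut. With lists of equal length DNAH17 held 2 and 5 peaks and RBFOX3 13 and 20. Depth being unknown, a place without a peak may be one below the threshold.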

Other observations

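Some non-coding records carried several peaks. LOC101929650 (chr17:83143438-83215414), near the chromosome end, carried 5 DNAJC12KO peaks and 0 WT peaks. DNAH17-AS1, antisense within DNAH17, carried 1 WT and 4 DNAJC12KO peaks, which are also peaks of DNAH17. The small nucleolar RNA record SNORD134 within FASN overlapped 1 WT peak. The 16 pseudogenes had 0. No share over all small nucleolar RNA or pseudogene records was computed, so these counts stand without a background.

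The longest stretch without a peak in either list, 257 kb at chr17:80560931-80817554, fell within RPTOR. The next, 202 kb at chr17:78678721-78880843, enclosed USP36, a nucleolar deubiquitinase gene, and parts of CYTH1 and TIMP2. In the WT list alone, the longest gap was 437 kb at chr17:78486464-78923477. The DNAJC12KO list had its longest, 345 kb, at chr17:80500157-80844950, and there RPTOR held 1 WT peak on each side of the shared gap.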
